A study of Mus musculus with 24 samples.

Results

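Genes that carry and restrain nuclear factor κB (NF-κB) signaling were followed through single-cell RNA-Seq of Panc02 mouse pancreatic tumors treated with a neoantigen vaccine and checkpoint antibodies. The set holds 8 of the 32285 genes in the data, found by gene symbol, and all 8 were present. Of these, 4 encode inhibitors or feedback regulators (*Nfkbia*, *Nfkbiz*, *Tnfaip3*, and *Birc3*) and 4 encode NF-κB subunits (*Nfkb1*, *Nfkb2*, *Rel*, and *Relb*). The set was selected on measured values, since *Nfkbia* and *Nfkbiz* were higher with the vaccine in exhausted CD8+ T cells of these same data. Values of that comparison are therefore given as a description, with no test, and tests are given for other cells, treatments, and preparations.

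Male C57BL/6 mice carried s.c. tumors of Panc02, a mouse pancreatic cancer cell line. There were 8 treatments. Mice without vaccine were labelled Isotype Control, Anti-PD-1, Anti-CTLA-4, or Anti-PD-1 + Anti-CTLA-4. Vaccinated mice were labelled PancVAX + Anti-PD-1 + Anti-CTLA-4 where all 3 agents were given, and otherwise PancVAX, PancVAX + Anti-PD-1, or PancVAX + Anti-CTLA-4. PancVAX is a mixture of synthetic long peptides of Panc02 neoantigens (50 μg, given per peptide in the methods, on days 12 and 19). By the methods of the study the peptides were given with AddaVax and a STING agonist and mice without vaccine received PBS, so that the peptides and the adjuvants cannot be told apart. Anti–PD-1 (100 μg) began on day 12, anti–CTLA-4 (100 μg) was given on days 15 and 22, and tumors were harvested on day 38. Tumors were pooled within a treatment, and the dissociated cells of each treatment went into 1 library as they were (whole tumor) and into 1 library after immune cell enrichment by Percoll density separation. Both libraries of a treatment are together called its pool here, and it was not given whether a pair came from the same animals. With 1 pool per treatment, the effect of an agent was tested over 4 pools with it and 4 without it. The pools of a group differ in the other agents, and the fit takes the effects of the 3 agents as additive. *P* values of those tests measure the spread between pools around that fit, not between mice. Departures from additivity are part of this spread.

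NF-κB dimers are held in the cytoplasm by inhibitors of the IκB family until receptors such as those for TNF, IL-1, pathogen products, or antigen activate the IκB kinases, which mark IκBα for destruction. *Nfkbia* (ENSMUSG00000021025) encodes IκBα and is itself an NF-κB target, so that its RNA is a common readout of recent signaling. *Nfkbiz* (ENSMUSG00000035356) encodes the nuclear protein IκBζ, *Tnfaip3* (ENSMUSG00000019850) encodes the ubiquitin-editing enzyme A20, and *Birc3* (ENSMUSG00000032000) encodes the ubiquitin ligase cIAP2. *Nfkb1* (ENSMUSG00000028163) and *Nfkb2* (ENSMUSG00000025225) encode the precursors of p50 and p52, *Rel* (ENSMUSG00000020275) encodes c-Rel, the subunit best known from lymphocytes, and *Relb* (ENSMUSG00000002983) encodes the usual partner of p52 in the noncanonical branch.

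Of 144994 barcodes, 57355 passed the filters on genes, UMIs, mitochondrial share, and hemoglobin. They were clustered without the 8 genes, and a cluster was called "like" a cell type only from fixed markers. Of the 18 resulting classes, 14 had enough cells in every pool for tests. The tumor gate could not be named as such for most cells. A group led by *Prelp* and *Ogn* (7938 cells) and a group led by *Rhox5* and *Cdc20* (5849 cells) are called by their leading genes, and 2330 cells stayed unnamed. Libraries held 77132398 to 176233225 UMIs over all barcodes. The Percoll library of PancVAX + Anti-PD-1 stood apart with 7413 cells passing, against 1793–4901 in the others, and was rich in the *Prelp*-led and *Rhox5*-led groups. Of the cells, 7.27% carried a barcode also seen in another library, at most 1.26% between any pair of libraries. Levels are UMIs per 1000000 UMIs (CPM) summed over all cells of a class in a pool or library. They are shares of the RNA of a class, not amounts per cell. Median UMIs per cell of the tested classes ran from 1487 (neutrophil-like) to 6333 (*Prelp*-led), with 4960 in exhausted-like CD8+ T cells.

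Promoter sequence from RefSeq (GRCm38.p6, the mm10 build) was at hand for *Nfkbia*, *Tnfaip3*, *Birc3*, *Nfkb2*, and *Rel*. It is shown because the pathway is known to drive its own regulators through κB sites near their start sites. A 10-base κB consensus was searched on both strands in windows from 250 bases before to 50 bases after each start, where it occurs in 8.46% of 32851 windows. It occurred in windows of 4 of the 5 genes, and the *Birc3* window (chr9:7873121-7873420) held none. The 150 bases before the start are printed 5′ to 3′ on the strand of the gene, with matches to the consensus in capitals and overlapping matches merged. Stretches are chr12:55492648-55492797 (minus strand) for *Nfkbia*, chr10:19015411-19015560 (minus strand) for *Tnfaip3*, chr11:23770970-23771119 (minus strand) for *Rel*, and chr19:46304587-46304736 (plus strand) for *Nfkb2*.
Nfkbia: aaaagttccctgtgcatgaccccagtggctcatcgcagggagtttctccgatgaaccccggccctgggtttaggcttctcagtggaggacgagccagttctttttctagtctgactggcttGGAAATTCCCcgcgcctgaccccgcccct
Tnfaip3: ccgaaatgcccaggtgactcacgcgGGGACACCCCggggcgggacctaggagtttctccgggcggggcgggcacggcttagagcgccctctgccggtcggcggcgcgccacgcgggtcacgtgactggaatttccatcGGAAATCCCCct
Rel: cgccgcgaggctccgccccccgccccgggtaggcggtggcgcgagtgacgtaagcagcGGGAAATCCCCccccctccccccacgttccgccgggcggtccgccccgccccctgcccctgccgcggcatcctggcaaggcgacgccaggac
Nfkb2: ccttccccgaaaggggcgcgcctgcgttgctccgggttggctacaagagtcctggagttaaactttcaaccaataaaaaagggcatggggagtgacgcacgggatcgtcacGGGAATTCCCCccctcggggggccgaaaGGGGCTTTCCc
The *Nfkbia* stretch holds 1 match, starting 29 bases before the start site. *Tnfaip3* has 2 separate matches, at 125 and 12 bases before the more upstream of its 2 annotated starts, and none at the other. *Rel* has 2 overlapping matches at 92 and 91 bases before its start. *Nfkb2* has 3 at its first start, of which those at 39 and 38 bases overlap and the last lies 11 bases before the start. At least 2 matches occur in 1.22% of all windows and at least 3 in 0.186%. These matches are letters of the reference, and no binding was measured.

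The 8 genes were not highest in the same cells. Mean levels over 8 pools differed between the highest and the lowest of the 14 tested classes by 3.04-fold for *Nfkb1* and by 150-fold for *Birc3*. Classes come from clustering, so these levels are a description without a test. *Nfkbia* reached 4767 ± 509 CPM (SD, n = 8 pools) in neutrophil-like cells, where the lowest pool had 4119 CPM and the highest 5585 CPM. Of the tested classes, regulatory T–like cells followed at 2021 ± 258 CPM and effector CD4+ T–like cells at 2003 ± 355 CPM, and each of these was the higher of the pair in 4 of 8 pools. The *Prelp*-led group had 1615 ± 491 CPM and monocyte-like cells 1187 ± 197 CPM. Macrophage-like cells (486 ± 110 CPM) and exhausted-like CD8+ T cells (423 ± 111 CPM) were lowest, with macrophage-like cells the higher in 6 of 8 pools. *Nfkbia* thus spanned 11.3-fold over the classes.

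*Nfkbiz* was also highest in neutrophil-like cells, at 908 ± 111 CPM, above macrophage-like cells at 345 ± 46.2 CPM in 8 of 8 pools. Regulatory T–like cells (294 ± 62.5 CPM) and monocyte-like cells (288 ± 41.7 CPM) did not differ beyond their spread. The lowest level of *Nfkbiz* was in exhausted-like CD8+ T cells, at 35.7 ± 14.3 CPM, 25.4-fold below neutrophil-like cells. *Birc3* was highest in neutrophil-like cells as well, with 274 ± 31.3 CPM there, 144 ± 20.2 CPM in B-like cells, and 113 ± 13.9 CPM in regulatory T–like cells. Neutrophil-like cells were above B-like cells in 8 of 8 pools, while monocyte-like (80.0 ± 10.7 CPM), dendritic-like (60.6 ± 15.4 CPM), and macrophage-like cells (54.4 ± 6.05 CPM) had lower means than effector CD4+ T–like cells (92.8 ± 18.9 CPM). It was close to 0 in the *Prelp*-led and *Rhox5*-led groups, at 1.82 ± 1.59 CPM and 2.89 ± 2.24 CPM.

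Among the feedback genes *Tnfaip3* was the one led by T cells. Its levels were 748 ± 69.4 CPM in effector CD4+ T–like cells, 673 ± 94.4 CPM in regulatory T–like cells, 579 ± 85.7 CPM in cytotoxic-like CD8+ T cells, and 503 ± 86.9 CPM in NK-like cells. Effector CD4+ T–like cells were above regulatory T–like cells in 6 of 8 pools, and cytotoxic-like CD8+ T cells were above NK-like cells in 6 of 8. Exhausted-like CD8+ T cells had 424 ± 57.7 CPM, above neutrophil-like cells (345 ± 40.2 CPM) in 8 of 8 pools. The exhausted-like cells therefore had the lowest CPM of *Nfkbia* and *Nfkbiz* of all classes but stood in the middle of the order for *Tnfaip3*. Endothelial-like cells were lowest at 58.2 ± 40.7 CPM.

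The subunit genes were led by lymphoid and dendritic-like cells. *Rel* was highest in B-like cells at 542 ± 89.0 CPM, above dendritic-like cells (375 ± 68.1 CPM) in 8 of 8 pools. Dendritic-like and regulatory T–like cells (356 ± 74.7 CPM) were each the higher in 4 pools, and the *Rhox5*-led group had 27.1 ± 13.8 CPM. *Relb* was highest in dendritic-like cells (118 ± 15.7 CPM) and regulatory T–like cells (113 ± 25.5 CPM), which did not differ beyond their spread. *Nfkb2* was highest in regulatory T–like cells at 159 ± 29.9 CPM, above effector CD4+ T–like cells (112 ± 24.4 CPM) in 8 of 8 pools. *Nfkb2* and *Relb* were both low in macrophage-like cells, at 34.6 ± 4.90 CPM and 26.8 ± 3.87 CPM. *Nfkb1* varied least, from 79.0 ± 35.3 CPM in endothelial-like cells to 241 ± 34.0 CPM in regulatory T–like cells.

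**Figure D1:**
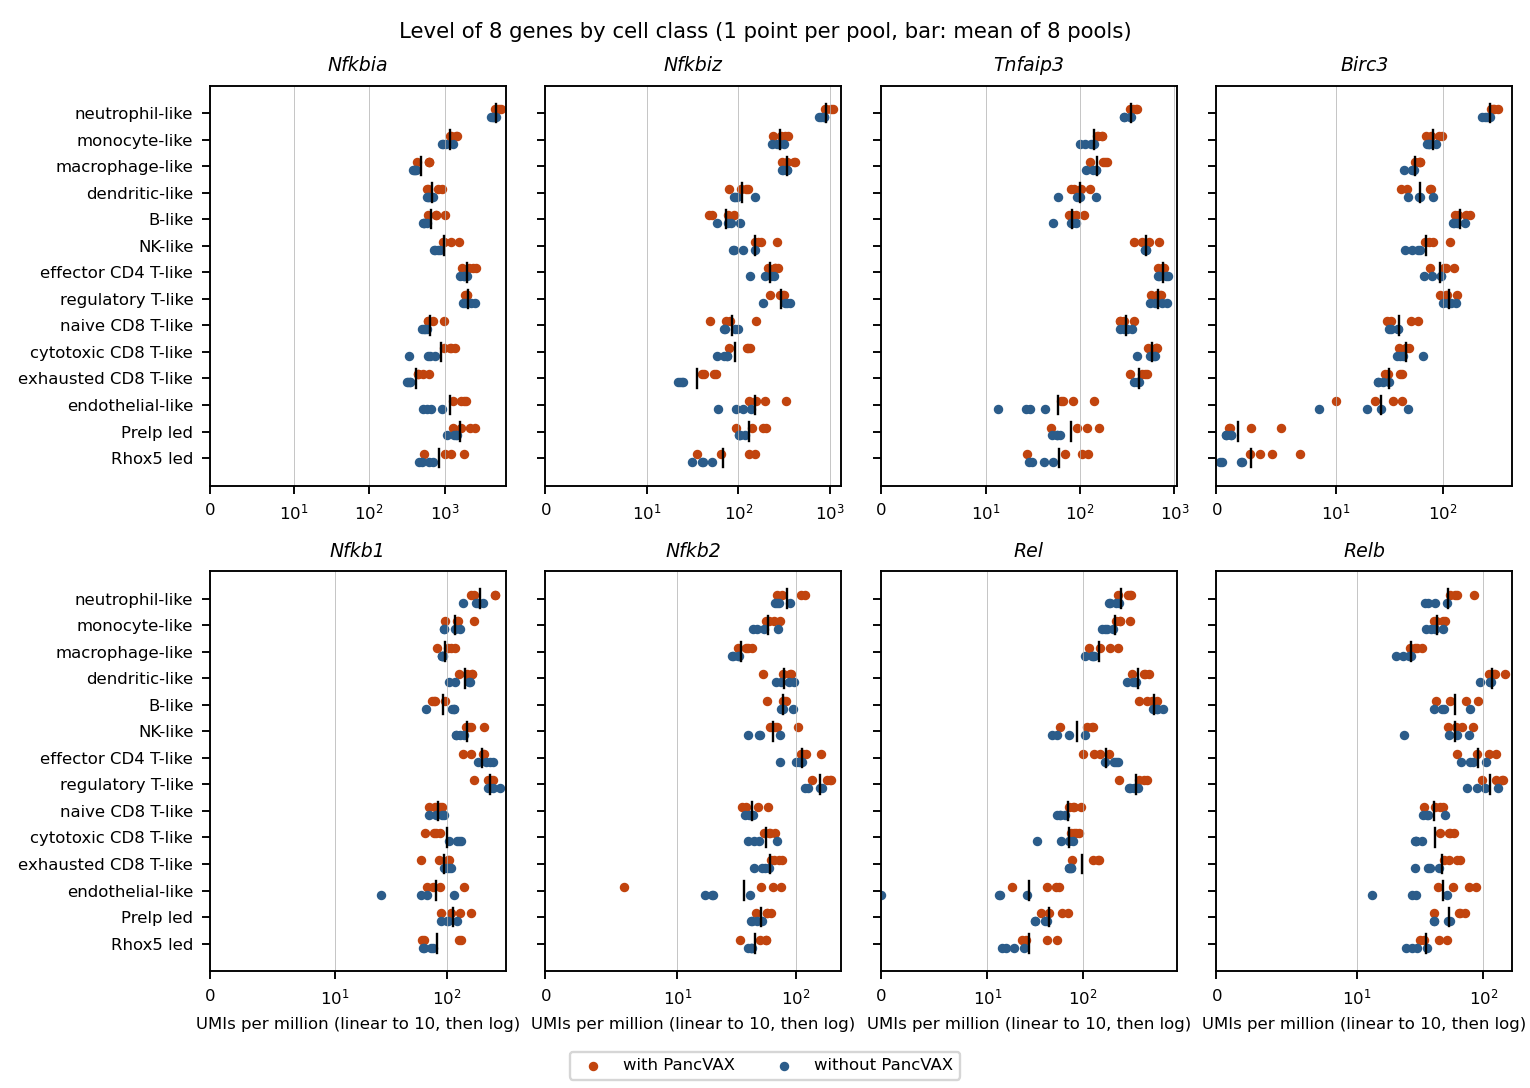
Levels of the 8 genes in the 14 tested classes, in CPM on an axis that is linear up to 10 CPM and logarithmic above it, with 1 point per pool (with or without PancVAX by color) and a bar at the mean of 8 pools. *Nfkbia*, *Nfkbiz*, and *Birc3* are highest in neutrophil-like cells, *Tnfaip3* in effector CD4+ T–like cells, and *Rel* in B-like cells.

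Over 129 sums of a class in a pool, *Nfkbia* and *Nfkbiz* were the most alike of the members (Pearson r = 0.70 of log2[CPM + 1]), with *Nfkb2* and *Relb* next (r = 0.70). Sums of 1 pool share libraries and those of 1 class share cells, so these r values are descriptions. Among 5872 other genes, *Nfkbia* was most like *Csrnp1* (r = 0.80), *Resf1* (0.76), and *Skil* (0.75), and *Nfkbiz* was most like *Cdkn1a* (0.75), *Tmbim6* (0.72), and *Gadd45b* (0.72). The nearest genes of *Tnfaip3* were *Cish* (r = 0.89), *Ipcef1* (0.88), and *Ptpn22* (0.87), and those of *Birc3* were *Srgn* (0.90), *Ddx3y* (0.89), and *Cyba* (0.88). *Rel* was most like *Rilpl2* (r = 0.84) and then *Nfkbid* (0.82), which encodes another nuclear IκB protein, and *Stap1* (0.81). *Relb* was most like *Nfkbib* (0.73), which encodes the inhibitor IκBβ, the adaptor gene *Traf1* (0.69), and *Tmem123* (0.63). *Nfkb1* had *Rab11fip1* (r = 0.71), *Mpp7* (0.69), and *Dgat1* (0.69), and *Nfkb2* had *Gpbp1* (0.72), *Dusp5* (0.69), and *Stk24* (0.68).

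In exhausted-like CD8+ T cells (4182 cells), *Nfkbia* and *Nfkbiz* were higher in every pool with PancVAX than in every pool without it. This is the pattern for which the set was chosen. The larger cluster of the class was led by *Gm156*, *Trgv2*, and *Tcrg-C2*, followed by *Lag3* and *Tox*. The smaller cluster was led by *Gzmd*, *Gzme*, and *Gzmg*. Over all genes of this class 5.61% were higher in every vaccine pool than in every other pool, and 7.96% were either all higher or all lower. *Nfkbia* was 445.1 CPM in the PancVAX pool, 523.7 CPM with anti–PD-1 added, 447.3 CPM with anti–CTLA-4 added, and 629.8 CPM with both. Without the vaccine it was 349.3 CPM in the isotype control pool, 343.0 CPM with anti–PD-1, 318.5 CPM with anti–CTLA-4, and 326.1 CPM with both. The means were 511 ± 86.9 CPM and 334 ± 14.3 CPM (n = 4 pools each), with a fitted log2 fold change of 0.54. The pool with all 3 agents was the highest and the pools without vaccine were close together. A pool sums its Percoll and whole tumor cells in unequal shares, and *Nfkbia* differed between preparations. In whole tumor libraries alone, where 5.80% of all genes did not overlap, the groups did not overlap either (291.6–475.1 CPM with vaccine and 190.2–260.6 CPM without). In Percoll libraries they overlapped, and the PancVAX library (485.7 CPM) was below that of the isotype control (533.4 CPM). The other Percoll libraries had 581.0–716.4 CPM with vaccine and 363.1–419.8 CPM without.

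*Nfkbiz* in these cells was 41.7 CPM with PancVAX, 39.8 CPM with anti–PD-1 added, 53.6 CPM with anti–CTLA-4 added, and 56.8 CPM with both. The pools without vaccine had 21.8 CPM (isotype control), 22.8 CPM (anti–PD-1), 24.5 CPM (anti–CTLA-4), and 24.4 CPM (both). The fitted log2 fold change was 0.97, with means of 48.0 ± 8.48 CPM and 23.4 ± 1.30 CPM. With marker gates in place of clusters it was 1.68, and that of *Nfkbia* was 1.12. Without the Percoll library of PancVAX + Anti-PD-1 that of *Nfkbia* was 0.38. The groups did not overlap within Percoll libraries (36.9–64.0 CPM and 25.1–28.8 CPM) or within whole tumor libraries (40.6–60.3 CPM and 16.7–21.0 CPM). Of all genes of this class, 5.71% did not overlap within Percoll libraries and 5.80% within whole tumor libraries, in either direction. Pools also did not overlap for 3 subunit genes, and each of these overlapped within 1 preparation. *Rel* had a log2 fold change of 0.68, with the PancVAX pool at 76.2 CPM, the other 3 vaccine pools at 127.7–146.6 CPM, and the pools without vaccine at 71.8–75.4 CPM. The PancVAX pool was thus nearest to the pools without vaccine. Its Percoll library, at 43.4 CPM, had the lowest *Rel* of the 8 Percoll libraries, and those without vaccine had 69.3–92.4 CPM. *Relb* had a log2 fold change of 0.59, with 48.7 CPM in the Percoll library of PancVAX and 57.5 CPM in that of the isotype control. *Nfkb2* had 0.34 and overlapped in whole tumor libraries. *Birc3* (0.32), *Tnfaip3* (0.09), and *Nfkb1* (−0.28) overlapped between the groups of pools. *Birc3* did not overlap within whole tumor libraries (31.7–39.6 CPM and 21.7–30.2 CPM) and overlapped within Percoll libraries. Over all genes of this class 0.125% passed the threshold used for the other classes.

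Markers of other cell types also differed with the vaccine in the same exhausted-like sums. The 11 neutrophil markers, of which *Cxcr2* was at 0, summed to 19.1–51.0 CPM in the 4 pools with PancVAX and 9.61–14.2 CPM in those without. The 13 dendritic cell markers summed to 112–174 CPM and 36.2–39.2 CPM, with *Cd209a* and *Siglech* at 0. They include *Ccr7*, which is also among the naive CD8+ T markers, so this sum is not specific to dendritic cells. The 14 dissociation and immediate early genes, known to rise during tissue dissociation, summed to 3635–4848 CPM and 3127–3998 CPM, with overlapping groups. The part of these signals in the higher *Nfkbia* and *Nfkbiz* was not tested. The class held 248–468 cells per pool with PancVAX and 478–851 without.

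**Figure D2:**
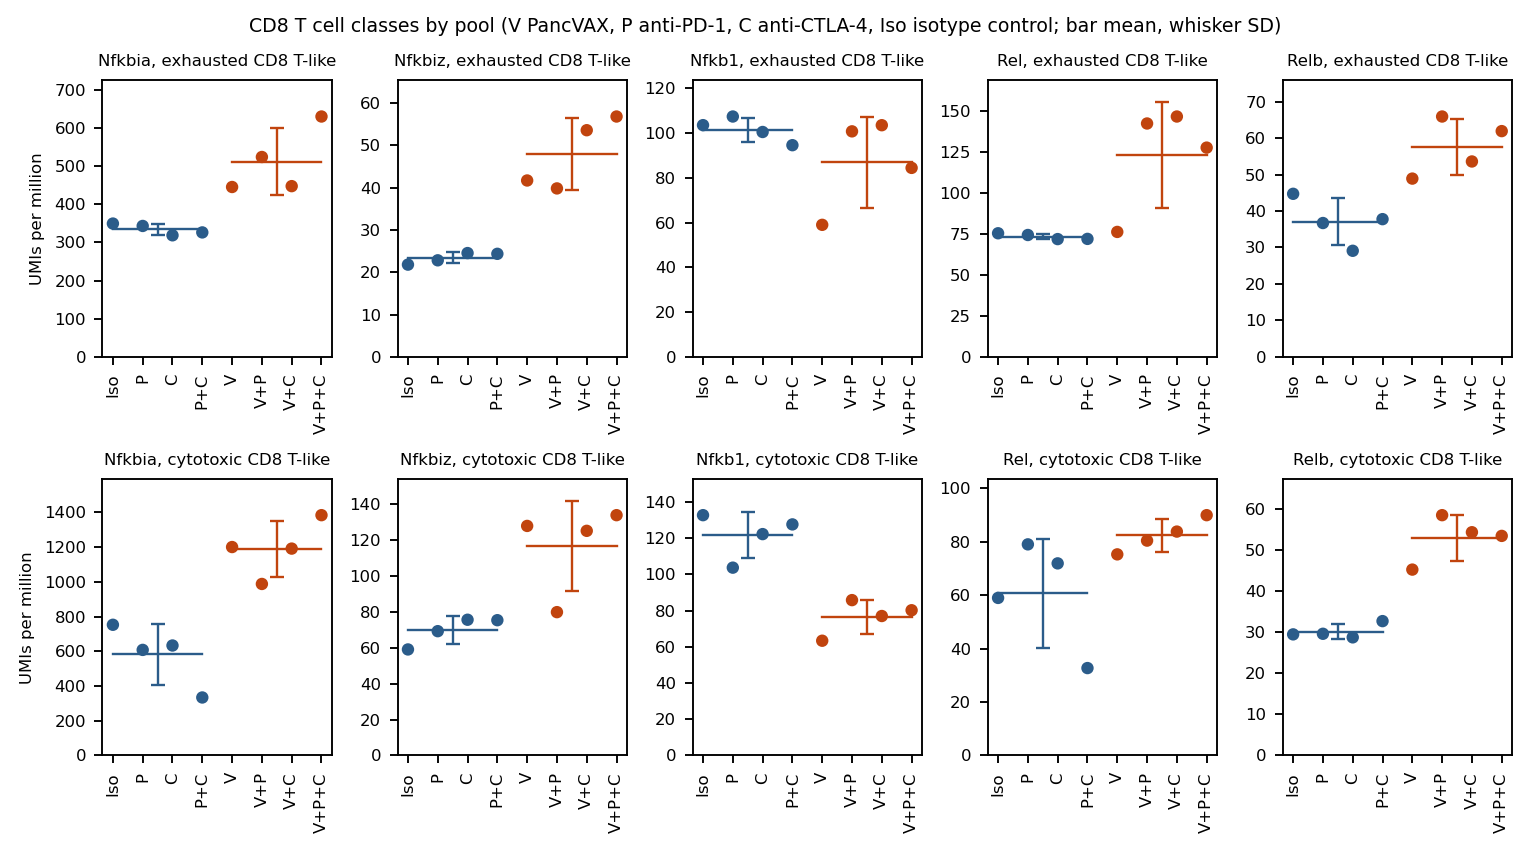
Levels of *Nfkbia*, *Nfkbiz*, *Nfkb1*, *Rel*, and *Relb* in exhausted-like (upper row) and cytotoxic-like (lower row) CD8+ T cells, in CPM on axes from 0, with 1 point per pool, a line at the mean of the 4 pools of a group, and a whisker for the SD. *Nfkbia* and *Nfkbiz* of both classes lie higher in all 4 pools with PancVAX than in all 4 without, although within Percoll libraries exhausted-like *Nfkbia* overlaps and within either preparation cytotoxic-like *Nfkbiz* overlaps, and *Nfkb1* of the cytotoxic-like class lies lower, although it overlaps within whole tumor libraries.

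In the 13 other classes, 3 of 102 tested member-by-class differences with PancVAX passed the threshold, and all 3 were in cytotoxic-like CD8+ T cells (4104 cells, led by *Lgals3* and *Ccl5*). A call was an adjusted *P* under 0.05 by the quasi-likelihood test of edgeR with Benjamini-Hochberg adjustment over all genes of the class, with an absolute log2 fold change over 0.5. Over all genes of the 13 classes 0.443% were called, and in cytotoxic-like CD8+ T cells alone 2.80%, against 3 of the 8 members there. *Nfkbia* and *Nfkbiz* rose and *Nfkb1* fell. Both CD8+ T classes come from the same libraries, so the cytotoxic-like values are no independent repeat of the exhausted-like ones.

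*Nfkbia* in cytotoxic-like CD8+ T cells was 1199.8 CPM in the PancVAX pool, 987.4 CPM with anti–PD-1 added, 1190.9 CPM with anti–CTLA-4 added, and 1383.4 CPM with both. The isotype control pool had 752.4 CPM, anti–PD-1 607.8 CPM, anti–CTLA-4 633.1 CPM, and both antibodies 333.9 CPM. Every vaccine pool was above every other pool. The means were 1190 ± 162 CPM and 582 ± 177 CPM. The fitted rise was 2.13-fold (log2 fold change 1.09, SE 0.14, adjusted *P* = 9.7e-07 by edgeR). The rise held in Percoll libraries alone (1.05) and in whole tumor libraries alone (1.57).

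*Nfkbiz* rose from 69.8 ± 7.74 CPM to 117 ± 24.8 CPM (log2 fold change 0.72, SE 0.20, adjusted *P* = 0.031 by edgeR). The vaccine pools had 127.8 CPM (PancVAX), 79.8 CPM (with anti–PD-1), 125.0 CPM (with anti–CTLA-4), and 133.7 CPM (with both), against 59.0–75.5 CPM without vaccine. The pools without vaccine held 8–23 UMIs of the gene each, and DESeq2 gave an adjusted *P* of 0.083. Of 12 alternatives 6 kept the call. It was lost in Percoll libraries alone (0.63, adjusted *P* = 0.34 by edgeR), in whole tumor libraries alone (0.93, adjusted *P* = 0.087), with marker gates (0.59), without cells bearing markers of another class (0.71), and with no other treatment term (0.67). Within each preparation the groups overlapped, at 78.2–130.2 CPM and 15.6–91.2 CPM in Percoll libraries and 81.6–148.8 CPM and 28.2–98.1 CPM in whole tumor libraries. The call was also lost without the Isotype Control pool (0.70), the Anti-PD-1 pool (0.82), the Anti-CTLA-4 pool (0.70), or the pool with all 3 agents (0.57). *Nfkb1* fell from 122 ± 12.6 CPM to 76.6 ± 9.54 CPM (log2 fold change −0.64, SE 0.17, adjusted *P* = 0.027 by edgeR), with 63.4–85.8 CPM in the vaccine pools and 103.8–132.8 CPM in the others. It was called in 6 of 12 alternatives, and not in whole tumor libraries alone (−0.41, adjusted *P* = 0.666), where the groups overlapped at 68.3–82.2 CPM and 56.5–154.2 CPM, or in Percoll libraries alone (−0.70, adjusted *P* = 0.115). Its call was lost without the Isotype Control pool (−0.57), the Anti-PD-1 pool (−0.71), the Anti-CTLA-4 pool (−0.55), the pool with both antibodies (−0.63), or the pool with all 3 agents (−0.59). *Relb* also did not overlap, as did 10.5% of all genes there, at 45.3–58.5 CPM with PancVAX and 28.8–32.7 CPM without, but was not called (0.82, SE 0.26, adjusted *P* = 0.081 by edgeR). Within whole tumor libraries *Relb* overlapped, at 28.2–54.6 CPM and 14.0–28.6 CPM.

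The cytotoxic-like class was small without vaccine, with 40–89 cells per pool against 674–1314 with it. Its 13 cytotoxic markers summed to 36611–37242 CPM in vaccine pools and 17933–27080 CPM in the others. Naive CD8+ T markers summed to 1342–1904 CPM with vaccine and 756–1416 CPM without, and the stress genes to 4501–5188 CPM and 3283–4743 CPM. Of the 14 stress genes, 2 were called higher with vaccine in this class, where 2.80% of all genes were called. The 11 neutrophil markers summed to 13.5–22.9 CPM with vaccine and 4.94–68.7 CPM without, with overlap. The part of these differences in the *Nfkbia* result was not tested.

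In the remaining 12 classes 0 of 94 differences with PancVAX were called by edgeR, 40 had an unadjusted *P* under 0.05 (10.5% of all genes did), and DESeq2 called 1, *Nfkbia* in endothelial-like cells (1.32, adjusted *P* = 0.0020). Under 12 alternatives the number of member calls with PancVAX over the classes ranged from 1 to 11. It was highest with no filter on low counts, so these counts depend on the settings. The share of all genes called under each alternative is not given here. Of the 102 tested differences, 82 had a log2 fold change above 0. An unadjusted *P* under 0.05 by edgeR was reached by 45, against 10.8% of all genes. The share of all genes above 0 is not given here. All classes come from the same 8 pools, so counts over classes are not counts of independent repeats. Of the 102, 20 were higher in every vaccine pool than in every other pool and 1 was lower, against 4.57% higher and 6.66% in either direction over all genes. Within Percoll libraries (12 classes) 9 of 96 were higher without overlap and 3 lower, against 2.58% higher and 4.82% in either direction over all genes. Within whole tumor libraries the counts were 14 of 102 and 0, against 4.39% and 5.83%. *Nfkbia* was above 0 in 12 of 13 classes with a median of 0.42, while the median over all genes of a class was between −0.04 and 0.03. Outside cytotoxic-like CD8+ T cells its pools did not overlap in 5 classes, where 2.25–4.71% of all genes were higher in every vaccine pool. These were macrophage-like cells (572 ± 90.9 CPM with PancVAX, 400 ± 17.9 CPM without, log2 fold change 0.47, adjusted *P* = 0.15 by edgeR and 0.0053 by DESeq2), B-like cells (0.42), NK-like cells (0.49), naive-like CD8+ T cells (0.37), and endothelial-like cells (1.32, adjusted *P* = 0.11 by edgeR). Within Percoll libraries *Nfkbia* overlapped in macrophage-like and naive-like CD8+ T cells, and within whole tumor libraries in B-like, NK-like, and naive-like CD8+ T cells. Endothelial-like cells were too few for all 8 Percoll libraries. Without vaccine the endothelial-like class had as few as 23 cells in a pool. Of its 619 cells, 377 were in 1 pool with vaccine, and 41.8% of its cells carried markers of another class. *Rel* had a median log2 fold change of 0.45 over 12 classes, and its monocyte-like value was 0.50 (252 CPM against 176 CPM, adjusted *P* = 0.18). *Rel* was lower with PancVAX in B-like cells (−0.39) and effector CD4+ T–like cells (−0.48), neither called. *Relb* was above 0 in 13 of 13 classes with a median of 0.25.

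**Figure D3:**
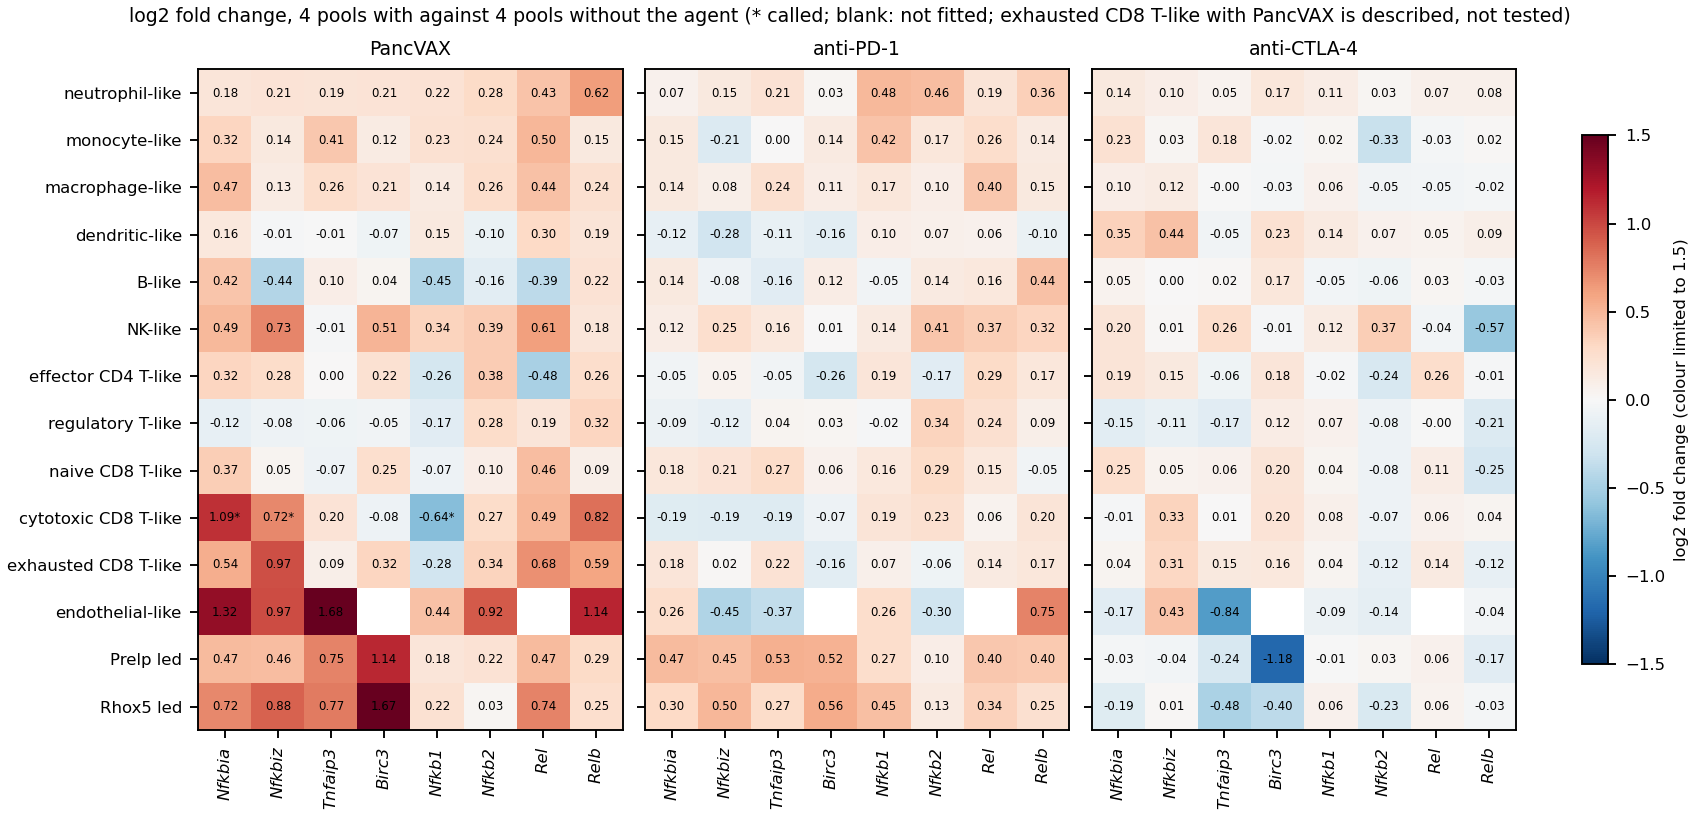
Log2 fold changes of the 8 genes in each of the 14 classes for the vaccine and for either antibody, each over 4 pools with the agent and 4 without, with a star at called values, blanks where a gene was not fitted, and color limited to 1.5. The stars are at *Nfkbia* (1.09), *Nfkbiz* (0.72), and *Nfkb1* (−0.64) in cytotoxic-like CD8+ T cells with PancVAX, and the exhausted-like PancVAX values are shown without a call.

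No member was called when the 4 pools with an antibody, those with PancVAX or the other antibody included, were compared with the 4 without it. With anti–PD-1, 0 of 110 differences were called by edgeR, 17 had an unadjusted *P* under 0.05 (5.42% of all genes did), and DESeq2 also called 0. All genes of the 14 classes gave 0.0217% calls. The lowest adjusted *P* was that of *Nfkb1* in neutrophil-like cells (0.219), at 229 ± 42.7 CPM with anti–PD-1 and 166 ± 21.0 CPM without, with overlapping groups. *Nfkb2* there was 96.2 ± 21.6 CPM and 70.9 ± 4.14 CPM (adjusted *P* = 0.354 by edgeR). With anti–CTLA-4, 0 of 110 were called by edgeR and by DESeq2, 7 had an unadjusted *P* under 0.05 (4.49% of all genes did), and the background was 0.0170%.

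Adding both antibodies to PancVAX was compared between the 2 libraries of PancVAX + Anti-PD-1 + Anti-CTLA-4 and the 2 of PancVAX, with the spread taken from all 16 libraries and preparation as a covariate. This sets 1 pool against 1 pool with its 2 preparations in the place of replicates, so *P* values here measure the spread between libraries after treatment and preparation, not between pools or mice. Of 106 differences 5 were called, all higher, against 0.480% over all genes. Of the 5, 3 were in macrophage-like cells, where 1.67% of genes were called and 3 of 8 members. The others were *Tnfaip3* in exhausted-like CD8+ T cells and *Nfkbiz* in the *Prelp*-led group.

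*Rel* rose in macrophage-like cells, from 135.0 CPM (Percoll) and 99.9 CPM (whole tumor) with PancVAX to 210.3 CPM and 175.2 CPM with both antibodies added. The log2 fold change was 0.77 (SE 0.10, adjusted *P* = 2.8e-05 by edgeR). *Rel* was also high in macrophage-like cells with PancVAX + Anti-PD-1, at 239.4 CPM (Percoll) and 223.6 CPM (whole tumor), and 184.2 CPM and 135.9 CPM with PancVAX + Anti-CTLA-4. In the 8 libraries without vaccine it lay between 95.3 CPM and 157.6 CPM. *Nfkbiz* in the same cells rose from 303.9 CPM and 293.2 CPM to 429.8 CPM and 414.7 CPM (0.54, SE 0.10, adjusted *P* = 0.0030 by edgeR). It was 321.2 CPM and 352.9 CPM with PancVAX + Anti-PD-1, and the highest value of any library was 508.4 CPM, in the Percoll library of PancVAX + Anti-CTLA-4. *Tnfaip3* rose from 151.8 CPM and 109.5 CPM to 199.1 CPM and 167.9 CPM (0.55, SE 0.13, adjusted *P* = 0.012 by edgeR). *Nfkbia* (0.49, adjusted *P* = 0.017) and *Nfkb1* (0.46, adjusted *P* = 0.041) passed the adjusted *P* but not the fold limit. Without the Percoll library of PancVAX, *Nfkbiz* (0.43) and *Tnfaip3* (0.43) fell below the fold limit, and *Tnfaip3* (0.39) did so without the whole tumor library of PancVAX with both antibodies. Of 9 alternatives, 3 kept the *Nfkbiz* call, 5 kept that of *Tnfaip3*, and 7 that of *Rel*. With the largest cluster of the class alone (0.41 and 0.43) and with a mitochondrial limit of 5% (0.50 and 0.47), neither *Nfkbiz* nor *Tnfaip3* was called, and without cells bearing markers of another class *Nfkbiz* was not (0.44).

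A macrophage-like cluster led by C1q genes made up 66.5% (Percoll) and 66.1% (whole tumor) of the class with both antibodies and 60.1% and 50.1% with PancVAX alone. Dendritic cell markers in the macrophage-like sums were 109–111 CPM and 63.6–93.1 CPM, and stress genes 6622–8127 CPM and 6776–7985 CPM. The part of these shifts was not tested. Without the preparation covariate 0 differences were called, since Percoll and whole tumor libraries then enter the spread. With cells gated on markers in place of clusters, *Rel* was 0.69 with an adjusted *P* of 0.34.

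In exhausted-like CD8+ T cells *Tnfaip3* was 400.1 CPM (Percoll) and 261.5 CPM (whole tumor) with PancVAX and 560.3 CPM and 408.9 CPM with both antibodies added (log2 fold change 0.54, SE 0.12, adjusted *P* = 0.014 by edgeR). The difference had the same direction within both preparations. The PancVAX library was the lowest of each preparation, and libraries without vaccine had 430.0–488.1 CPM (Percoll) and 285.5–349.4 CPM (whole tumor). *Tnfaip3* was 575.7 CPM and 391.2 CPM with PancVAX + Anti-PD-1, and 505.5 CPM and 408.6 CPM with PancVAX + Anti-CTLA-4. The stress genes *Junb* (0.56) and *Dnajb1* (0.65) were also called higher in these cells, and their part was not tested. Of 9 alternatives 6 kept the call, which was lost with DESeq2 (0.54, adjusted *P* = 0.068), with marker gates (0.40, adjusted *P* = 0.16 by edgeR), and with no preparation covariate (0.54, adjusted *P* = 0.72 by edgeR). It was also lost without any 1 of the 4 libraries compared (0.48–0.62). The *Prelp*-led group had *Nfkbiz* at means of 142 CPM with PancVAX and 206 CPM with both antibodies, each over 1 Percoll and 1 whole tumor library. The log2 fold change was 0.61 (SE 0.13, adjusted *P* = 0.036 by edgeR). Of 8 alternatives 5 kept that call. It was lost without cells bearing markers of another class (0.56), with no preparation covariate (0.59, adjusted *P* = 0.85 by edgeR), and with only the 4 libraries compared in the fit (0.60). It was also lost without any 1 of these 4 libraries (0.52–0.70), without either library of Anti-CTLA-4 (0.61), and without the whole tumor library of Anti-PD-1 + Anti-CTLA-4 (0.61).

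**Figure D4:**
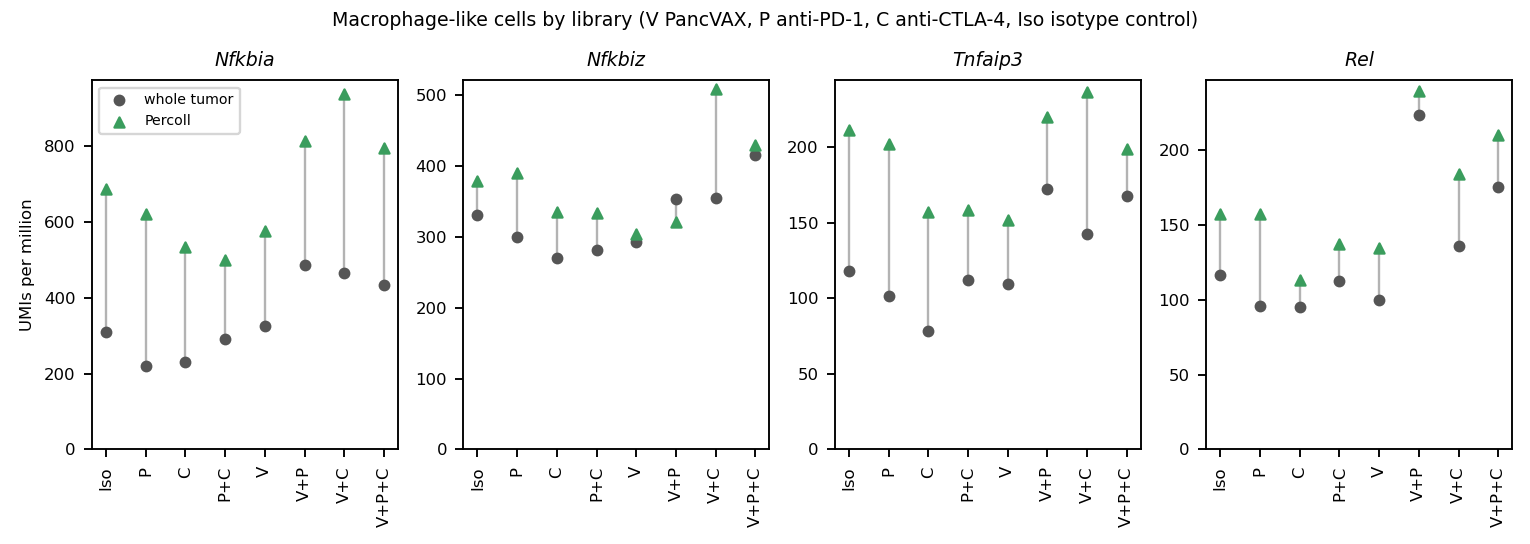
Levels of *Nfkbia*, *Nfkbiz*, *Tnfaip3*, and *Rel* in macrophage-like cells, in CPM on axes from 0, with the whole tumor library (circle) and the Percoll library (triangle) of each of the 8 treatments joined by a line. *Rel* is 175.2 CPM and 210.3 CPM with PancVAX and both antibodies against 99.9 CPM and 135.0 CPM with PancVAX, and *Nfkbia* is higher in the Percoll library of every treatment.

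The comparison of preparations had the most called differences of the members and also the largest share of calls over all genes. It used 16 libraries, against 8 pools for each agent, so the numbers of calls are not comparable. Each Percoll library was compared with the whole tumor library of the same treatment, and 26 of 106 differences were called, all higher in Percoll. Over all genes 5.00% were called and 2.80% were called higher. Preparation is also the sequencing batch, so that density separation, handling, and batch cannot be told apart.

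*Nfkbia* was higher in the Percoll library in 107 of 108 pairs of libraries over the classes and was called in 11 of 14 classes. The classes share the same 8 pairs of libraries, so these are not independent repeats. In B-like cells it was 933 ± 212 CPM in Percoll and 328 ± 161 CPM in whole tumor libraries, with no overlap (log2 fold change 1.67, SE 0.14, adjusted *P* = 1.7e-07 by edgeR). With no upper limits on the genes and UMIs of a cell, the B-like value was 0.79 and the call was lost (adjusted *P* = 0.059 by edgeR), while 7 of 8 alternatives kept it. Macrophage-like cells had 683 ± 154 CPM and 345 ± 104 CPM, also with no overlap (1.07, SE 0.06, adjusted *P* = 7.0e-14 by edgeR). Exhausted-like CD8+ T cells had 525.5 ± 137.5 CPM and 299 ± 98.3 CPM (0.81), and cytotoxic-like CD8+ T cells had a log2 fold change of 0.86. Other called classes ranged from 0.60 (regulatory T–like) to 1.28 (NK-like). Neutrophil-like cells (0.44) were under the fold limit. The call was also lost in dendritic-like cells with no upper limits (0.58) and with marker gates (0.73), in monocyte-like cells with marker gates (0.68), and in cytotoxic-like CD8+ T cells (0.76) and the *Rhox5*-led group (0.76) with no treatment covariate. No call of *Nfkbia* was lost when any 1 of the 8 pairs was left out. Since neutrophil-like cells had the highest CPM of *Nfkbia*, the 11 neutrophil markers were summed in the same libraries. In B-like cells they had a median of 375 CPM in Percoll (25.2–5189 CPM) and 96.5 CPM in whole tumor libraries (0–1674 CPM). In macrophage-like cells the ranges were 273–444 CPM and 175–396 CPM, and in exhausted-like CD8+ T cells 6.10–65.8 CPM and 5.41–33.5 CPM, against 51967–76012 CPM in neutrophil-like cells themselves. Their part in the *Nfkbia* difference was not tested.

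*Tnfaip3* was higher in 95 of 108 pairs and was called in 7 classes, with 0.83 in B-like, 0.73 in dendritic-like, and 0.70 in macrophage-like cells. The macrophage-like call was kept in 8 of 8 alternatives and without any 1 of the 8 pairs. Leaving out 1 pair at a time, the B-like call was kept for 3 of the 8 pairs and in 4 of 8 alternatives, and the dendritic-like call for 3 of the 8 and in 3 of 8. *Relb* was called in 4 classes, among them naive-like CD8+ T cells (0.85, kept in 6 of 8 alternatives and without any 1 pair) and regulatory T–like cells (0.83, kept in 5 of 7 and for 5 of the 8 pairs left out 1 at a time). *Rel* and *Nfkb1* were both called in neutrophil-like cells. There *Rel* was 318 ± 56.9 CPM in Percoll and 151 ± 50.5 CPM in whole tumor libraries, higher in 8 of 8 pairs (1.08, adjusted *P* = 8.7e-11 by edgeR), and *Nfkb1* was 241 ± 39.5 CPM and 138 ± 53.5 CPM (0.82, adjusted *P* = 1.4e-07 by edgeR). *Rel* was also called in B-like cells (0.69) and *Nfkb2* in cytotoxic-like CD8+ T cells (0.56).

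By contrast, *Nfkbiz* and *Birc3* were called in 0 classes by edgeR and in 0 by DESeq2, with an unadjusted *P* under 0.05 by edgeR in 5 classes for *Nfkbiz* and 3 for *Birc3* (23.8% of all genes over the classes). *Nfkbiz* was higher in Percoll in 68 of 108 pairs, and its adjusted *P* was under 0.05 in 2 classes below the fold limit, the *Prelp*-led group (0.46) and macrophage-like cells (0.27). *Birc3* was higher in 46 of 108 pairs, with an adjusted *P* under 0.05 in 0 classes. In macrophage-like cells *Birc3* was lower in Percoll in all 8 pairs, by a log2 of 0.16.

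**Figure D5:**
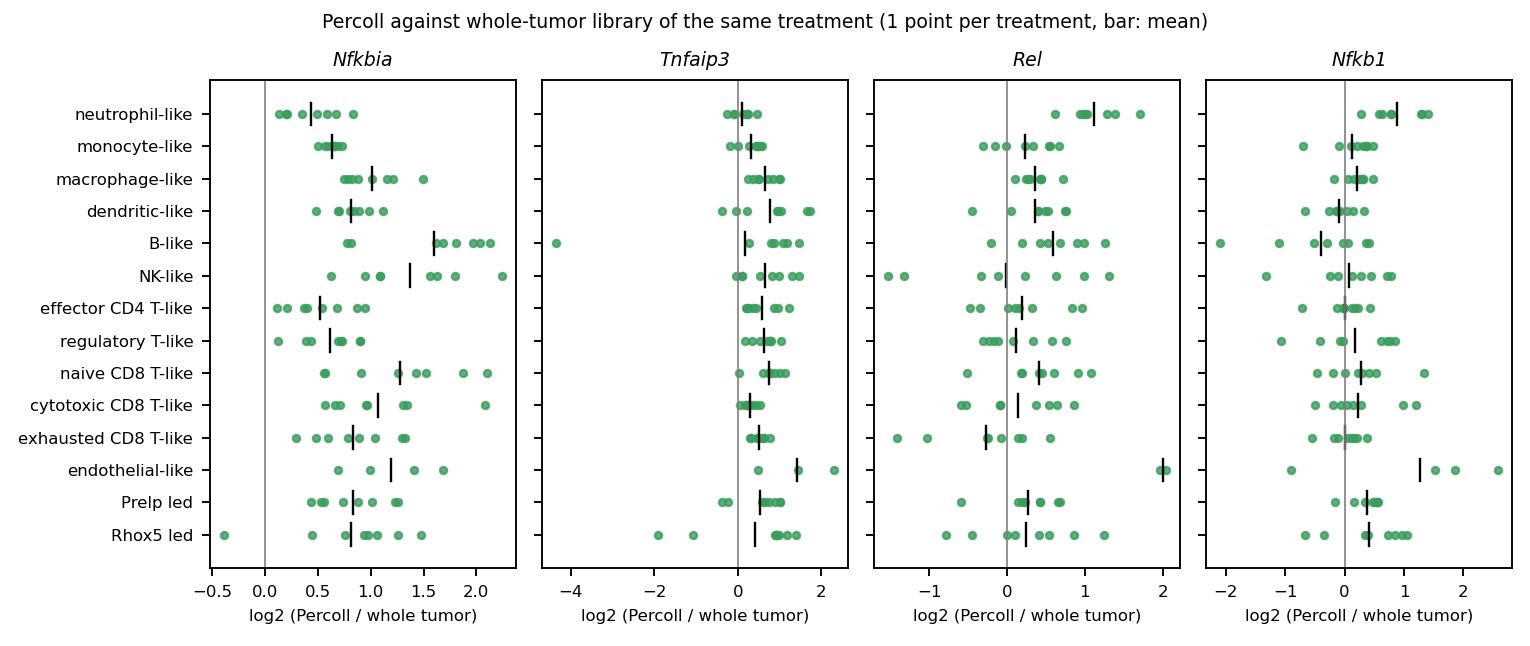
Log2 ratios of the Percoll to the whole tumor library of a treatment for *Nfkbia*, *Tnfaip3*, *Rel*, and *Nfkb1* in the 14 classes, with 1 point per treatment, a bar at the mean, and pairs with a level of 0 left out. *Nfkbia* lies above 0 in 107 of 108 pairs, and *Rel* and *Nfkb1* lie highest above 0 in neutrophil-like cells among classes with 8 pairs.

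Stress genes moved with preparation as well. Over the classes 81 of 192 tested differences of the 14 genes were called higher in Percoll and 7 lower, against 2.80% and 2.20% over all genes. Their sum in exhausted-like CD8+ T cells was 4228–5548 CPM in Percoll and 2228–3658 CPM in whole tumor libraries, and in macrophage-like cells 7549–9397 CPM and 5838–7831 CPM. In neutrophil-like cells the sum was lower in Percoll (8594–11828 CPM) than in whole tumor libraries (14870–18609 CPM), where *Rel* and *Nfkb1* were higher in Percoll. The part of the stress genes in the member differences was not tested.

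Other genes of the pathway, from lists chosen with earlier results of these data known, had 8 of 591 differences called higher with PancVAX and 2 lower over 13 classes, against 0.262% and 0.182% over all genes. Of these, 4 higher and 1 lower were among the 48 in cytotoxic-like CD8+ T cells, where 2.80% of all genes were called. By list, 1 of 63 differences of other subunits and inhibitors, 0 of 68 of kinases (3 with an unadjusted *P* under 0.05 by edgeR, against 10.8% of all genes), 1 of 135 of adaptors, 2 of 69 of other feedback genes, 1 of 48 of ligands, and 2 of 134 of targets were called higher. Among receptors 1 of 74 was called higher and 1 lower, and 1 target was lower. Stress genes had 5 of 182 differences called higher. Of the 5, 2 were among the 14 in cytotoxic-like CD8+ T cells, the class of the member calls. Another was the heat shock gene *Hspa1a* in the *Rhox5*-led group (4.13, adjusted *P* = 3.3e-04 by edgeR). Of its 481 UMIs there, 351 were in the Percoll library of PancVAX, and the log2 fold changes beside 4.13 were −4.25 for anti–PD-1, −2.82 for anti–CTLA-4, and −6.00 for both antibodies added to PancVAX. In cytotoxic-like CD8+ T cells the target *Ier3*, an immediate early gene linked to cell survival, rose by 1.58 on the log2 scale (adjusted *P* = 1.2e-04 by edgeR). *Zc3h12a*, which encodes the RNA-degrading feedback enzyme regnase-1, rose by 0.97 (adjusted *P* = 0.0095) and the ligand gene *Tnf* by 0.96 (adjusted *P* = 0.021). The chemokine gene *Ccl3* fell by 1.04 (adjusted *P* = 0.015). *Il1r2*, a decoy receptor for IL-1, rose in monocyte-like cells by 1.17 (adjusted *P* = 0.040).

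With anti–PD-1, 2 of 196 differences of the stress genes were called, both lower, against 0.0142% called lower over all genes. With anti–CTLA-4, 1 of 196 was called, lower, against 0.00755%. That call, and 1 of the 2 with anti–PD-1, was *Hspa1a* in the *Rhox5*-led group. Of its 481 UMIs there, 351 were in the Percoll library of PancVAX, so these calls rest largely on 1 library. Both antibodies added to PancVAX gave 2 of 192 higher and 8 lower, against 0.295% and 0.185% over all genes, with *Egr1* (−1.99), *Jun* (−1.87), and *Fos* (−1.48), immediate early genes, lower in B-like cells. *Hspa1a* in B-like cells had 83 and 230 UMIs in the libraries of PancVAX and 0 in both libraries with the antibodies added. With anti–CTLA-4 the targets *Ccl3* in regulatory T–like cells (2.19, adjusted *P* = 0.0016) and *Ccl4* in effector CD4+ T–like cells (2.14, adjusted *P* = 0.033) were higher, 2 of 145 target differences against 0.00944% of all genes. With both antibodies added to PancVAX, 5 of 138 target differences were called higher and 1 lower, against 0.295% and 0.185% over all genes, with *Cxcl2* higher in dendritic-like cells (2.78, adjusted *P* = 0.0023) and *Cxcl1* lower in the *Prelp*-led group (−2.75, adjusted *P* = 0.0023). Percoll libraries had 31 of 138 target differences higher and 2 lower, 11 of 67 other feedback differences higher, and 9 of 133 adaptor differences higher, against 2.80% higher and 2.20% lower over all genes. *Tnf* in B-like cells was at 2.44.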

How the data were processed

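Cells of 16 libraries were measured by 10x 5′ single-cell RNA-Seq. The authors made the deposited UMI counts per gene and barcode with Cell Ranger 4.0.0 (mm10, per the labels) and the methods name Seurat for later steps. Here a cell was kept if it had 200–3000 genes, 1000–10000 UMIs, a mitochondrial share of its UMIs under 10%, and no hemoglobin UMI. After scaling each cell to 10000 counts and log transformation, the leading 25 components of the 2000 most variable genes, without the members, were adjusted for preparation by a reimplemented Harmony and clustered by Louvain (20 neighbors, resolution 0.6, seed 1, scanpy 1.11.5, igraph 0.11.9). This gave 26 clusters, and 14747 T and NK cells were clustered again into 18. No doublet caller was run, and an alternative left out cells with markers of another class. UMIs were summed by class over pools with at least 20 cells or libraries with at least 10 cells. They were tested with the quasi-likelihood test of edgeR 4.0.16 (TMM, filterByExpr) and Benjamini-Hochberg adjustment over all genes of a class, two-sided. Each of the 3 agents was an additive term of 1 fit of 8 pools, without interactions. Alternatives used DESeq2 1.42.0, other filters, classes, covariates, and leave-outs (R 4.3.3, Python 3.11.15). The edgeR fits of PancVAX and of preparation were run on simulated counts with known changes. This was done for cytotoxic-like CD8+ T, macrophage-like, and neutrophil-like sums only. Clustering, class naming, and the other comparisons were not simulated.

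The members and lists were chosen with earlier results of these data known. Named genes were the 8 members, at most 6 called genes per comparison from the pathway and stress lists, and the 3 genes most correlated with each member among those with a mean of at least 20 CPM. Beyond this rule, the stress genes *Fos*, *Junb*, and *Dnajb1* were named with both antibodies added to PancVAX. Leading and marker genes of classes were named as well. T cell receptor data were not analysed here.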

Additional observations from a re-analysis of the deposited data

Results flagged for a closer look

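In groups of 4 pools with or without PancVAX, 8 of 224 groups held a pool that lay far from the other 3 by Dixon's test, where chance alone gives about 1 in 20. With PancVAX, *Nfkbia* in macrophage-like cells was 435.5 CPM in the PancVAX pool, against 615.0–618.7 CPM in the other 3. In cytotoxic-like CD8+ T cells the PancVAX + Anti-PD-1 pool was low for *Nfkbiz* (79.8 CPM against 125.0–133.7 CPM) and for *Tnfaip3* (529.5 CPM against 631.9–648.6 CPM).

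Without PancVAX, *Nfkbiz* in dendritic-like cells was 151.5 CPM in the Anti-CTLA-4 pool and 89.7–96.0 CPM in the others. The Anti-PD-1 + Anti-CTLA-4 pool stood apart for 4 groups. It was low for *Nfkb1* in B-like cells (65.3 CPM against 110.6–115.2 CPM) and *Relb* in dendritic-like cells (94.7 CPM against 112.9–114.7 CPM). It was high for *Nfkb2* in B-like cells (93.3 CPM against 74.0–76.8 CPM) and in endothelial-like cells (40.7 CPM against 17.1–19.8 CPM).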

How the results depend on the processing

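With PancVAX 3 member differences were called. The number was 10 with 16 libraries and preparation as a covariate, 11 with no filter on low counts, 5 with no upper limits on genes and UMIs, 1 in Percoll libraries alone, and 1–8 when 1 pool was left out. It was 8 without the PancVAX pool, 7 without the PancVAX + Anti-CTLA-4 pool, and 1 without the Isotype Control, the Anti-PD-1, or the Anti-CTLA-4 pool. The fit of 16 libraries takes both libraries of a pool as separate samples. Shares of all genes called under the alternatives of this section are not given. The counts therefore do not tell a change in the members from a change in all genes. *Nfkbia* in cytotoxic-like CD8+ T cells was called under all 12 alternatives and 8 leave-outs (0.88–1.57). With both antibodies added to PancVAX 5 were called, against 2 with marker gates, 11 with no filter on low counts, 0 with no preparation covariate, and 1–6 when 1 library was left out (1 without the Percoll library of PancVAX, 2 without the whole tumor library of PancVAX with both antibodies). Where this left 1 library in a group, it was assumed to vary like the other groups. Anti–PD-1 had 0 calls and 0–1 when 1 pool was left out, with 1 without the Anti-CTLA-4 pool, and anti–CTLA-4 had 0 in all. Percoll had 26 and 19–31 under alternatives. Over 34 called differences, all 282 values under alternatives other than leave-outs kept their direction and 222 (78.7%) passed the threshold. These values come from the same data as the calls. Of the 34, 26 were Percoll differences, so the share mostly describes those. With PancVAX, *Nfkbiz* and *Nfkb1* each kept the call in 6 of 12. With both antibodies added, calls were kept in 3 of 9 (*Nfkbiz*, macrophage-like) to 7 of 9 (*Rel*, macrophage-like). Leaving out either library of a pair removes that pair from the comparison of preparations, and 0 leave-outs changed a direction. In exhausted-like CD8+ T cells marker gates moved the described log2 fold change of *Nfkbia* to 1.12 and of *Nfkbiz* to 1.68. The cause of these changes was not tested.

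Pools of tumors take the place of replicates, with 4 in each group of PancVAX. Those 4 differ in their antibodies, so no treatment had a replicate pool, and the spread between mice was not measured. In the cytotoxic-like class without vaccine and in the endothelial-like class, few cells and UMIs limit the precision of every value. Levels of a class can move with the cells placed in it.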
